A study of Schizosaccharomyces pombe with 9 samples.

Results

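Among 5146 annotated gene identifiers of coding style in the fission yeast Schizosaccharomyces pombe, 21 met set bounds on their transcript levels in mutant strains. Their levels were higher in cells lacking aps1 than in wild type, while their mean in asp1-D333A cells stayed within bounds around the wild-type level. Some of the 21, pfl3 and mfs2 among them, were left out by identifier or cosmid clone, and the 17 genes that remained are described here. They included the MADS-box transcription factor gene mbx2, the CSL-family transcription factor gene cbf12, the RNA-binding protein gene msa1, the squalene monooxygenase gene erg1, the phospholipase gene plb2 and the transporter genes mfs1 and ght2. The genes were picked from the measured values themselves: a mean of at least 3 CPM (a gene's count divided by the library's column total, times 1000000), an aps1 deletion to wild-type ratio of mean CPM of at least 1.4 with no overlap between the libraries, and an asp1-D333A to wild-type ratio above 0.77 and below 1.3. The levels of these genes in the 3 strains are therefore a description of what was chosen, and no test is drawn from them.

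Polyadenylated RNA was sequenced from vegetatively growing log-phase cultures at 30 ºC in YES, a rich medium. Wild type (WT), an aps1 deletion strain and a strain that carries the asp1 allele D333A had 3 libraries each, numbered 4 to 6 for WT and 1 to 3 for each mutant. Each genotype was 1 strain, so another change carried by a mutant strain cannot be told apart from its named allele. The labels call the libraries of a strain replicate experiments and do not say whether separate cultures were grown, so p-values measure the spread between these libraries.

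Inositol pyrophosphates are signalling molecules with high-energy phosphate groups on an inositol ring, and in fission yeast they act on phosphate uptake genes through RNA 3′ processing and transcription termination. Asp1 is a bifunctional enzyme with a kinase domain that makes these molecules and a pyrophosphatase domain that removes their phosphates. The D333A change inactivates the kinase, whereas Aps1 is a Nudix-type hydrolase that breaks inositol pyrophosphates down. The levels of these molecules in the strains were not measured in these data.

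Library totals ran from 18244492 to 22999732 counts. The aps1 gene itself had 2516 to 2634 counts in WT and 1827 to 2131 in asp1-D333A, against 137 to 224 in the deletion strain. Replicate 3 of asp1-D333A stood apart from the other libraries of its strain: a chi-square statistic of counts per feature was 61.5 and 74.4 for the pairs that held it, 6.44 for the remaining pair, and 4.35 to 20.5 within the other strains. Beside the results on the genes described and on the lists below, values without that library are given where its removal changed a call or a count by over 1.5 times.

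The selection passed through 4839 identifiers with enough counts, of which 62 reached the aps1 deletion ratio and 61 had no overlap with WT. Of these 61, 23 had an asp1-D333A ratio at or above the upper bound, 17 were at or below the lower bound and 21 lay between. The rule left out 4 of the 21 by identifier or cosmid clone, namely tgp1, pfl3, mfs2 and SPBPB7E8.01, which gave the 17. RefSeq annotates 15 of the 17 as protein coding and 2, wtf8 and SPCC188.10c, as pseudogenes, so the coding label does not hold for those 2. They lie on chromosome I (4 genes), chromosome II (7) and chromosome III (6).

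**Figure D1:**
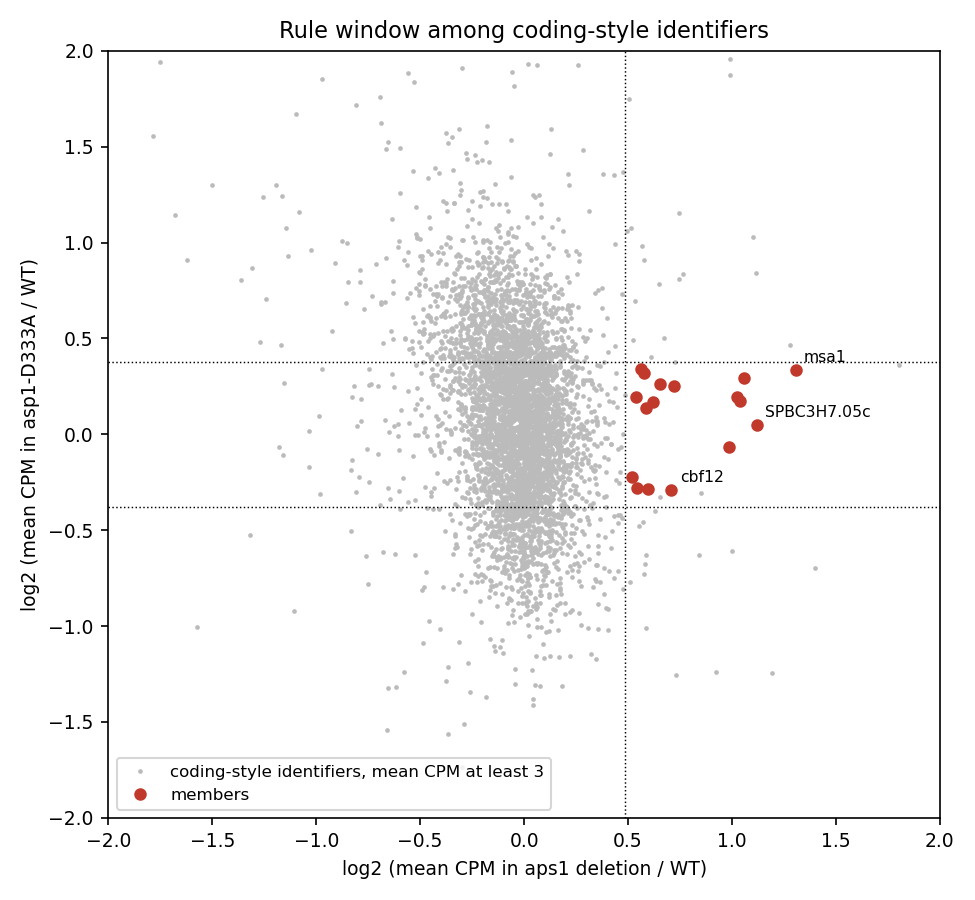
Log2 ratio of mean CPM in the aps1 deletion against WT (horizontal) and in asp1-D333A against WT (vertical) for 4839 coding-style identifiers (grey points, of which 40 fall outside the axes) and the 17 chosen genes (red points), with dotted lines at the bounds of the rule. The chosen genes reach an aps1 deletion ratio of 2.47 (msa1), and their vertical spread is set by the bounds.

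Across the 17 genes the aps1 deletion to WT ratio ran from 1.43 to 2.47 with a median of 1.57, and 5 genes were at least 2-fold higher. The asp1-D333A to WT ratio ran from 0.82 to 1.26 with a median of 1.13, and 12 of the 17 were above 1. All 17 passed the filter on low counts among the 6147 features tested. By the quasi-likelihood F test of edgeR (Benjamini-Hochberg), 16 were called higher in the deletion than in WT (all but eno101), where 7.76% of the coding-style identifiers were called higher. Without asp1-D333A replicate 3 in the shared fit these were 17 genes and 14.7% of the coding-style identifiers. Because the rule used that contrast, nothing is read from the count. The median log2 fold change was 0.72 for the 17 genes, 0.02 over the coding-style identifiers and -0.01 over all features.

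**Figure D2:**
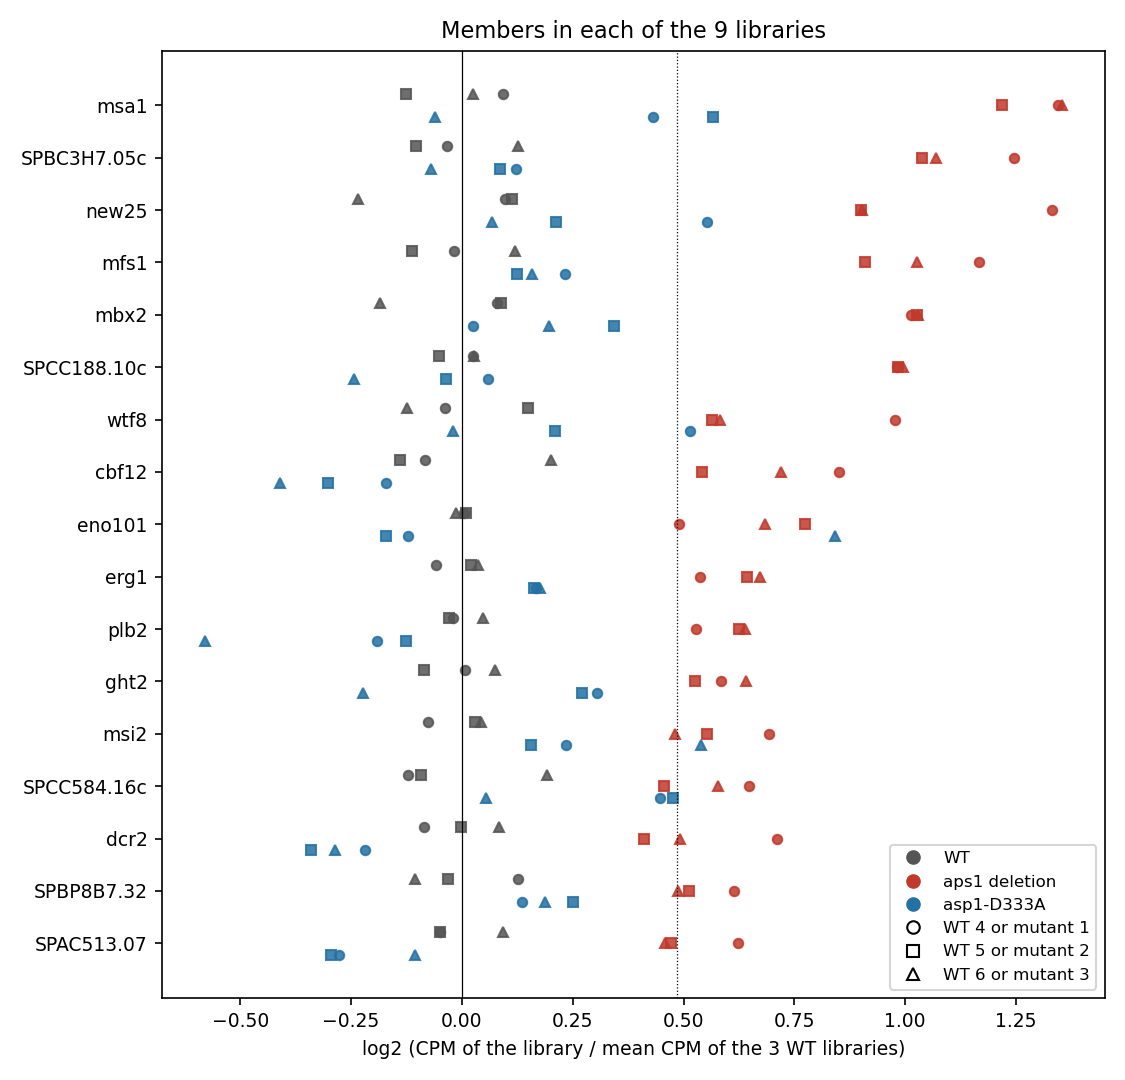
Log2 of each library's CPM over the mean CPM of the 3 WT libraries (horizontal) for each of the 17 genes, ordered by ratio; colours mark the strains, shapes the replicate numbers, and the dotted line the ratio of 1.4. The aps1 deletion libraries lie to the right of every WT library of the same gene, and replicate 3 of asp1-D333A (blue triangles) is the highest of its strain for 4 genes and the lowest for 9.

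Regulators of transcription and of RNA formed the first group. The gene mbx2 (SPBC317.01) encodes a MADS-box factor that drives cell-to-cell adhesion (flocculation) genes in fission yeast. Its level was 27.0, 27.1 and 22.5 CPM in WT, 51.5, 52.0 and 52.1 CPM in the aps1 deletion and 26.0, 32.4 and 29.3 CPM in asp1-D333A. The deletion libraries were nearly equal to each other and lay above all 6 others, while asp1-D333A overlapped WT. Means were 25.5 ± 2.65 CPM in WT and 51.9 ± 0.325 CPM in the deletion (SD, n = 3), a fitted log2 fold change of 1.08 ± 0.11 (SE).

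The gene cbf12 (SPCC1223.13) encodes a DNA-binding protein of the CSL family, known in fission yeast to promote cell adhesion. WT libraries held 91.6, 88.1 and 111 CPM, the deletion 175, 141 and 159.8 CPM, and asp1-D333A 86.2, 78.7 and 73.1 CPM. The order was the deletion above WT and WT above asp1-D333A, with no overlap between neighbouring strains. Its log2 fold change against WT was 0.77 ± 0.10 in the deletion and -0.42 ± 0.10 in asp1-D333A (SE).

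The gene with the highest ratio was msa1 (SPAC13G7.13c), which encodes an RNA-binding protein known to restrain sexual differentiation. It had 66.4, 57.0 and 63.4 CPM in WT, 158, 145 and 159 CPM in the aps1 deletion, and 84.0, 92.1 and 59.7 CPM in asp1-D333A. Replicates 1 and 2 of asp1-D333A were above all of WT and replicate 3 lay within the WT range. Its place among the 17 depends on replicate 3: without it the asp1-D333A to WT ratio was 1.41, outside the upper bound of the rule. The log2 fold change in the deletion was 1.37 ± 0.14 (SE).

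RefSeq annotates msi2 (SPBC660.15) as a subunit of the mRNA cleavage factor complex, which acts in 3′ end formation. It was at 45.1, 48.5 and 49.0 CPM in WT, at 76.8, 69.7 and 66.3 CPM in the deletion and at 55.9, 52.9 and 69.0 CPM in asp1-D333A. Both mutants were above all WT libraries in CPM, and asp1-D333A replicate 3 overlapped the deletion. The fitted log2 fold change in asp1-D333A was 0.18 ± 0.09 (SE). The gene overlaps prl62 and SPNCRNA.102 on its own strand, by 389 and 463 nucleotides in the ASM294v3 annotation, and how reads in such shared stretches were counted is not given in the sources used here. Without asp1-D333A replicate 2 msi2 no longer met the rule.

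For dcr2 (SPCC1020.05), annotated as a phosphoprotein phosphatase, the libraries held 91.9, 97.4 and 103 CPM in WT and 159.8, 129.7 and 137 CPM in the deletion. Its 3 asp1-D333A libraries, at 83.8, 77.0 and 80.0 CPM, lay below all of WT. The log2 fold change against WT was 0.60 ± 0.07 in the deletion and -0.42 ± 0.07 in asp1-D333A (SE). Without replicate 1 of the deletion, its highest library, dcr2 no longer met the rule.

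Transporters and enzymes of lipid and sugar metabolism formed the second group. The gene mfs1 (SPAC17C9.16c) encodes a membrane transporter of the major facilitator superfamily. WT held 84.6, 79.2 and 93.1 CPM of it, the deletion strain 192, 161 and 174 CPM, and asp1-D333A 101, 93.4 and 95.6 CPM. All 3 asp1-D333A libraries were just above the highest WT library in CPM and well below the deletion. The fitted log2 fold change in asp1-D333A was 0.04 ± 0.07 (SE). The means were 85.6 ± 6.97, 176 ± 15.7 and 96.5 ± 3.68 CPM (SD, n = 3).

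The hexose transporter gene ght2 (SPBC4B4.08) is annotated as a glucose and fructose symporter. It held 182, 170.4 and 190.5 CPM in WT, 271, 260.5 and 282 CPM in the deletion and 223, 218 and 155 CPM in asp1-D333A. The asp1-D333A libraries fell on both sides of WT, with replicate 3 the lowest of all 9. The fitted log2 fold change in the deletion was 0.64 ± 0.12 (SE).

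Squalene monooxygenase, encoded by erg1 (SPBC713.12), carries out an early oxygen-dependent step of ergosterol synthesis. Its levels were 259.9, 275 and 277 CPM in WT, 393, 423 and 431 CPM in the deletion, and 304, 303 and 306 CPM in asp1-D333A. The 3 strains did not overlap, and asp1-D333A lay between the others with an SD of 1.45 CPM. The fitted log2 fold change of erg1 was 0.68 ± 0.07 in the deletion and 0.03 ± 0.07 in asp1-D333A (SE), so the separation of asp1-D333A from WT holds for CPM.

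The phospholipase gene plb2 (SPAC1786.02) had 858, 852 and 899.7 CPM in WT and 1255, 1342 and 1355 CPM in the aps1 deletion. In asp1-D333A it had 762, 797 and 582 CPM, all below WT. Its log2 fold change against WT was 0.66 ± 0.11 in the deletion and -0.42 ± 0.11 in asp1-D333A (SE), and the latter was -0.28 ± 0.07 without asp1-D333A replicate 3.

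The glycolytic enolase gene eno101 (SPBC1815.01) had 3215, 3225 and 3178 CPM in WT and 4499, 5486 and 5153 CPM in the deletion. Its asp1-D333A libraries held 2949, 2846 and 5748 CPM. Replicate 3 of asp1-D333A was thus the highest of all 9 libraries and was 1.98 times the mean of the other libraries of its strain, which lay below WT. It was the only gene of the 17 not called in the deletion, with a log2 fold change of 0.72 ± 0.23 and an adjusted p of 0.061 (edgeR quasi-likelihood, Benjamini-Hochberg). Leaving out asp1-D333A replicate 3 from the shared fit narrowed the error to 0.09 at the same fold change, with an adjusted p of 2.0e-05 by the same test. The asp1-D333A to WT ratio without that library was 0.90. Without asp1-D333A replicate 1 or replicate 2, eno101 no longer met the rule.

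For SPAC513.07, annotated in the flavonol reductase and cinnamoyl-CoA reductase family of NAD-binding enzymes, WT held 153, 152 and 168 CPM. The deletion held 243, 219 and 217 CPM and asp1-D333A 130.3, 129 and 147 CPM. The order of the strains was the same as for cbf12, plb2 and dcr2, with no overlap between neighbours. Its deletion ratio of 1.433 was the lowest of the 17, and without replicate 1 of the deletion it no longer met the rule.

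Uncharacterised genes and pseudogenes made up the last group. The gene SPBC3H7.05c had 144, 137 and 161 CPM in WT, 349.8, 303 and 309.6 CPM in the deletion and 161, 157 and 141 CPM in asp1-D333A. All deletion libraries were far above the overlapping libraries of the other strains, and the log2 fold change was 1.18 ± 0.07 (SE). SPBP8B7.32, which lies next to mbx2, had 77.8, 69.6 and 66.2 CPM in WT, 109, 102 and 99.8 CPM in the deletion and 78.3, 84.7 and 81.1 CPM in asp1-D333A. Each strain's libraries kept apart in CPM, with asp1-D333A between WT and the deletion, and its fitted log2 fold change in asp1-D333A was 0.06 ± 0.07 (SE). SPCC584.16c had 53.9, 55.1 and 67.1 CPM in WT, 92.0, 80.5 and 87.7 CPM in the deletion and 80.0, 81.7 and 60.9 CPM in asp1-D333A. Its second asp1-D333A library overlapped the deletion, and without replicate 3 of that strain the gene left the window of the rule.

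The gene new25 (SPCC330.21) was near the floor of the rule. It had 2.80, 2.83 and 2.22 CPM in WT, 6.58, 4.88 and 4.89 CPM in the deletion and 3.84, 3.03 and 2.74 CPM in asp1-D333A, which rest on 43 to 130 counts per library, and without asp1-D333A replicate 3 it left the window of the rule. The pseudogene wtf8 (SPCC306.10), of the wtf family of meiotic drivers, was as low, at 3.18, 3.62 and 3.00 CPM in WT, 6.43, 4.82 and 4.89 CPM in the deletion and 4.66, 3.78 and 3.22 CPM in asp1-D333A. For both genes replicate 1 was the highest of its strain in each mutant. Their log2 fold changes in the deletion were 1.11 ± 0.20 and 0.77 ± 0.19 (SE), and that of wtf8 was no longer called without replicate 1 of the deletion (0.67) or without WT replicate 6 (0.70).

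The pseudogene SPCC188.10c had 43.1, 40.9 and 43.2 CPM in WT, 83.7, 83.9 and 84.6 CPM in the aps1 deletion and 44.2, 41.4 and 35.8 CPM in asp1-D333A. The deletion libraries differed from each other by less than 1 CPM and were all near 84.1 CPM. The neighbouring gene on the same strand is pfl4, which encodes a cell-surface flocculin. By contrast pfl4 held 75.9 CPM in WT and 75.3 CPM in the deletion on average, with a log2 fold change of 0.05 ± 0.10 and an adjusted p of 0.78 (edgeR quasi-likelihood, Benjamini-Hochberg). SPCC188.10c shares 606 nucleotides with SPCC188.14 on the same strand, and how reads in that stretch were counted is not given in the sources used here. On average SPCC188.14 held 11.3 CPM in WT and 13.5 CPM in the deletion. Its log2 fold change was 0.32 ± 0.12, with an adjusted p of 0.089 by the same test, or 0.037 without asp1-D333A replicate 3.

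No gene of the 17 had a copy at 95% identity or more over 100 nucleotides among the annotated features. The longest matches were 69.4% over 2330 nucleotides for SPCC188.10c with SPAPB2C8.01, 72.6% over 1657 for mfs1 with caf5 and 72.8% over 1435 for ght2 with ght6, and the highest identity among the longest matches of each gene was 76.7% over 1389 nucleotides for wtf8 with wtf22. How reads matching several places were treated is not given in the sources used here. In RNA from whole cultures, a higher share of cells with a transcript and more transcript per cell cannot be told apart.

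The bounds of the rule cut through a continuous range of values. Just inside the ratio of 1.4 were SPAC513.07 (1.433), SPBP8B7.32 (1.453) and dcr2 (1.458), and just outside it were SPAC17A5.19 (1.398), clr5 (1.391) and SPBC409.08 (1.382). The library values of clr5, a gene named for its role in silencing, were 271, 261 and 282 CPM in WT, 377, 354 and 401 CPM in the deletion and 299.8, 272 and 242 CPM in asp1-D333A. SPBC409.08 had 313, 290.4 and 302 CPM, 391, 434 and 426 CPM, and 299, 313 and 252 CPM in the same order of strains. SPAC17A5.19 had 3.23, 3.67 and 4.91 CPM, 6.03, 5.54 and 4.94 CPM, and 3.54, 4.61 and 5.48 CPM, so its deletion and WT libraries nearly touched. For clr5 and SPBC409.08 the deletion libraries were above all others.

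At the upper asp1-D333A bound, SPCC584.16c (1.264), msa1 (1.262) and msi2 (1.248) were the nearest inside. The nearest outside were the pseudogene SPAC23D3.05c (1.301), the chitin synthase gene chs1 (1.320) and SPAC1039.02 (1.383), all of them higher than WT in both mutants. SPAC1039.02 had 405, 400.2 and 476 CPM in WT, 956, 1009.6 and 1146 CPM in the deletion and 593, 592 and 586 CPM in asp1-D333A. For chs1 the values were 29.9, 24.4 and 26.9 CPM, 48.5, 38.0 and 37.3 CPM, and 34.8, 36.1 and 36.3 CPM. The pseudogene had 5.92, 4.46 and 6.25 CPM, 11.8, 7.60 and 8.10 CPM, and 7.53, 6.46 and 7.65 CPM. In these 3 genes each asp1-D333A library was above every WT library.

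At the lower bound cbf12 (0.817), plb2 (0.821) and dcr2 (0.823) were the nearest inside, and spx2 (0.728), SPBP8B7.26 (0.719) and SPAPB1A10.13 (0.647) the nearest outside. These outer genes lay above WT in the deletion strain and below it in asp1-D333A. The values of spx2 were 38.1, 34.4 and 36.6 CPM in WT, 53.7, 53.6 and 55.1 CPM in the deletion and 27.0, 29.3 and 23.2 CPM in asp1-D333A. SPBP8B7.26 had 139, 129 and 124 CPM, 175, 196 and 205 CPM, and 81.8, 83.1 and 117 CPM. SPAPB1A10.13 had 72.2, 71.5 and 68.7 CPM, 100, 109.9 and 109 CPM, and 36.1, 38.5 and 62.8 CPM. In both of the last genes replicate 3 of asp1-D333A was the highest of its strain.

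Within the allowed window the asp1-D333A levels of the 17 genes took 3 forms. All asp1-D333A libraries were above all WT libraries for mfs1, erg1, msi2 and SPBP8B7.32, where 40.6% of the coding-style identifiers with enough counts behaved so. They were all below WT for cbf12, plb2, dcr2 and SPAC513.07, against 28.0% of those identifiers, and for the remaining 9 genes the libraries overlapped. CPM by column total placed asp1-D333A higher than the TMM-scaled fit did: mfs1 had a ratio of mean CPM of 1.13 and a fitted log2 fold change of 0.04. By the quasi-likelihood F test of edgeR (Benjamini-Hochberg), cbf12, plb2, dcr2 and SPAC513.07 were called lower in asp1-D333A and 0 were called higher, where 35.1% and 27.4% of the coding-style identifiers were called lower and higher. The rule used this contrast too, so nothing is read from these counts.

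The word "only" in the choice of these genes holds within the window and the scaling used. Without asp1-D333A replicate 3, 8 of the 17 were called in asp1-D333A against WT, with msa1 (log2 fold change 0.38 ± 0.07), SPCC584.16c (0.34 ± 0.08) and ght2 (0.17 ± 0.06) higher. In the same fit eno101 was lower (-0.27 ± 0.10), beside cbf12, plb2, dcr2 and SPAC513.07. Scaling the libraries by total counts, which took the all-feature median log2 fold change in asp1-D333A from 0.01 to 0.14, gave 5 called higher (msa1, erg1, msi2, SPCC584.16c and SPBP8B7.32) and 4 lower. Upper-quartile scaling moved that median to 0.18 and gave 6 higher, with mfs1 added, and 3 lower, without plb2. Over all features the asp1-D333A calls were 1863 higher and 1891 lower in the main fit, against 2393 and 1363 with total counts and 2654 and 1288 with upper-quartile scaling. The aps1 deletion calls were 414 higher and 604 lower, against 244 and 738 with total counts and 296 and 723 with upper-quartile scaling. The number of deletion calls also moved with the libraries in the fit, to 780 higher and 888 lower without asp1-D333A replicate 3, 744 and 744 with the libraries of the pair alone, and 195 and 344 without replicate 2 of the deletion.

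Set against asp1-D333A directly, the aps1 deletion libraries lay wholly above for 14 of the 17 genes, where 28.1% of the coding-style identifiers did, and overlapped for eno101, msi2 and SPCC584.16c. All 17 were called higher in the deletion than in asp1-D333A, with log2 differences of 0.41 to 1.26 and a median of 0.95, where 40.0% of the coding-style identifiers were called higher. Both contrasts with WT chose the genes and so bear on this one. The spread between libraries was largest in asp1-D333A for 10 of the 17 genes, with a median coefficient of variation of 10.9% against 7.67% in WT and 6.68% in the deletion.

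Neighbouring transcripts were not used by the rule, so their changes could be tested. The nearest annotated feature on each side of the 17 genes and every feature overlapping them came to 42 that were not among the 17, and 32 of these had enough counts. In the aps1 deletion 2 of the 32 were called higher, SPNCRNA.1471 and pmp20, which is 6.25% against 6.73% of all features (edgeR quasi-likelihood, Benjamini-Hochberg). A further 6 were called lower, where 9.83% of all features were, and 25.0% were called in either direction against 16.6% of all features. The count of 2 was 4 without asp1-D333A replicate 3, where 12.6% of all features were called higher. It was 1 without any one of the WT libraries or without replicate 2 or 3 of the deletion, where 3.15% to 4.74% of all features were called higher. In asp1-D333A 43.8% of the 32 neighbours were called, 5 higher and 9 lower, against 61.1% of all features, of which 30.3% were higher and 30.8% lower.

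Among the neighbours were 15 long non-coding RNAs, 9 of them tested. In the deletion 5 of the 9 were called lower and 1 higher, where 26.8% and 2.06% of the 1069 long non-coding RNAs tested were called lower and higher. In asp1-D333A the counts were 1 lower and 3 higher, against 11.2% and 42.5%. Of the 5 called lower in the deletion, SPNCRNA.1625, SPNCRNA.1626 and SPNCRNA.1627 all lie at the mbx2 locus, so the 9 do not stand for separate loci. Over 50 abundant coding genes with a non-coding RNA lying almost wholly inside them on the other strand, the antisense counts were a small share of the sense counts in each library. How reads in such shared stretches were counted is not given in the sources used here, so this share cannot show whether the strands were kept apart. That share was lower in the deletion (0.621% to 0.728%) and higher in asp1-D333A (1.39% to 1.45%) than in WT (0.916% to 1.36%), so the deletion was lowest here as for the non-coding RNAs called lower in it, and the part of this share in those results was not tested.

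The mbx2 locus held 2 of the 17 genes and 3 of these non-coding RNAs. In the ASM294v3 annotation mbx2 and SPBP8B7.32 follow each other on the same strand, 1718 nucleotides apart. SPNCRNA.1626 runs on the opposite strand over all 2020 nucleotides of mbx2 and 760 nucleotides of SPBP8B7.32. It had 351, 301 and 309.7 CPM in WT, 244, 184 and 202 CPM in the aps1 deletion, and 426, 371 and 356 CPM in asp1-D333A. Every deletion library was below all 6 others, and the means were 321 ± 26.5, 209.9 ± 31.0 and 384 ± 36.4 CPM (SD, n = 3). SPNCRNA.1626 fell by 0.56 ± 0.09 on the log2 scale in the deletion (adjusted p 0.0015, edgeR quasi-likelihood, Benjamini-Hochberg), and its change in asp1-D333A was 0.13 with an adjusted p of 0.24 by the same test.

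SPNCRNA.1625, on the other strand 761 nucleotides upstream of mbx2, had 55.7, 54.0 and 55.7 CPM in WT, 35.1, 35.9 and 33.9 CPM in the deletion and 69.9, 70.7 and 67.1 CPM in asp1-D333A. The 3 strains were fully separated, in the order deletion, WT, asp1-D333A. By the quasi-likelihood F test of edgeR (Benjamini-Hochberg) it fell by 0.60 ± 0.08 (adjusted p 1.8e-04) in the deletion and rose by 0.19 ± 0.08 (adjusted p 0.037) in asp1-D333A, on the log2 scale. On the far side of SPBP8B7.32, SPNCRNA.1627 had 3.40, 4.21 and 2.94 CPM in WT, 1.42, 1.49 and 1.63 CPM in the deletion and 4.47, 4.39 and 3.96 CPM in asp1-D333A. It fell by 1.16 ± 0.21 on the log2 scale in the deletion (adjusted p 0.0026 by the same test). These 3 non-coding RNAs were thus lower in the deletion, where both genes on the mbx2 strand were higher. A further opposite-strand feature, the protein-coding gene pop7, overlaps SPBP8B7.32 by 612 nucleotides and went otherwise. Its means were 25.4 ± 3.32 CPM in WT, 22.6 ± 2.02 CPM in the deletion and 45.4 ± 0.879 CPM in asp1-D333A (SD, n = 3), with log2 fold changes of -0.12 ± 0.10 (adjusted p 0.47) and 0.70 ± 0.10 (adjusted p 4.0e-05) by the same test.

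**Figure D3:**
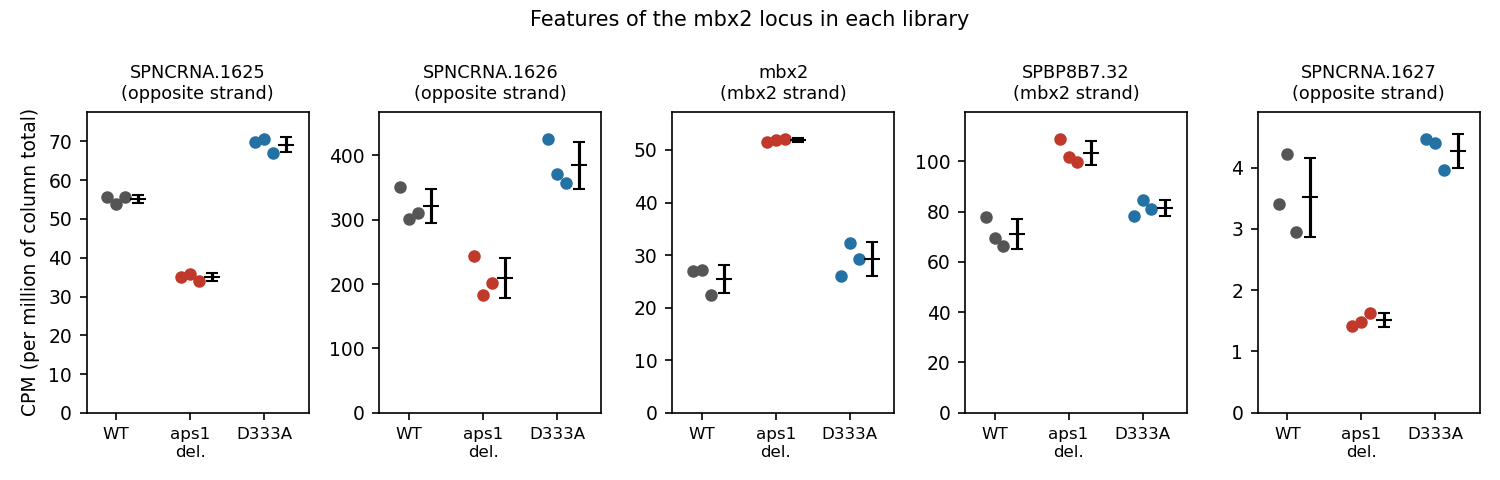
CPM of 5 neighbouring features of the mbx2 locus in each library (points) with the mean and SD of each strain (black bars, n = 3); each panel has its own vertical axis from 0. In the aps1 deletion mbx2 and SPBP8B7.32 are above WT, and the 3 non-coding RNAs on the opposite strand are below it.

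The level of mbx2 was 7.25% to 9.0% of that of SPNCRNA.1626 in the WT libraries and 21.1% to 28.3% in the deletion. The antisense share of 0.621% to 1.45% over the abundant coding genes above sets pooled non-coding counts over pooled coding counts. It is thus an unlike measure, and nothing is read from setting it beside the mbx2 shares.

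A comparable arrangement was found at mfs1, where SPNCRNA.991 overlaps the gene on the opposite strand by 698 nucleotides. It had 5.04, 4.71 and 5.94 CPM in WT, 1.57, 2.41 and 2.17 CPM in the deletion and 3.98, 5.18 and 4.17 CPM in asp1-D333A. The deletion libraries were below all others. SPNCRNA.991 fell by 1.28 ± 0.22 on the log2 scale in the deletion (adjusted p 0.0015, edgeR quasi-likelihood, Benjamini-Hochberg), and its change in asp1-D333A was -0.37 ± 0.20 with an adjusted p of 0.13. In the deletion it amounted to 0.817% to 1.5% of the mfs1 level, where in WT it amounted to 5.94% to 6.38%. The antisense share over the abundant coding genes above was 0.621% to 0.728% in the deletion libraries.

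SPNCRNA.1471 went the other way. It lies on the strand opposite SPBC3H7.05c, 21 nucleotides upstream of it in the annotation, so the 2 transcripts diverge from a shared stretch. Its levels were 24.7, 25.4 and 26.9 CPM in WT, 78.4, 66.2 and 72.3 CPM in the deletion and 8.45, 8.35 and 11 CPM in asp1-D333A. It rose by 1.55 ± 0.10 (adjusted p 4.2e-07) in the deletion and fell by 1.60 ± 0.11 (adjusted p 9.5e-08) in asp1-D333A on the log2 scale, by the quasi-likelihood F test of edgeR (Benjamini-Hochberg). SPBC3H7.05c itself was at 148 ± 12.3 CPM in WT and 153 ± 10.6 CPM in asp1-D333A (SD, n = 3), and whether the neighbours' changes differ in that mutant was not tested.

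SPNCRNA.812, 27 nucleotides upstream of msa1 on the opposite strand, fell by 0.45 ± 0.09 on the log2 scale in the deletion (adjusted p 0.006, edgeR quasi-likelihood, Benjamini-Hochberg). The peroxiredoxin-family gene pmp20, upstream of new25, rose by 0.28 ± 0.07 in the deletion (adjusted p 0.022) and by 0.66 ± 0.07 in asp1-D333A (adjusted p 6.3e-06) by the same test. The marker gene ura4, downstream of new25, had 0 counts in all 9 libraries, so no ura4 transcript was counted in any strain. The protein-coding neighbours tal1, which overlaps dcr2 by 45 nucleotides, and mik1 and gnd1, which flank msi2, fell in asp1-D333A by 1.07 ± 0.10, 1.20 ± 0.10 and 0.96 ± 0.09 on the log2 scale. The largest adjusted p of the 3 was 1.7e-06 by the same test, and in the deletion their changes were -0.19, -0.11 and -0.08 with adjusted p of 0.23 or more.

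The gene models, which the rule did not use, varied widely among the 17. In the ASM294v3 annotation 12 of them have a 5′ leader, the stretch from transcript start to start codon with any introns, with a median length of 292 nucleotides, against 99.0 nucleotides over the 4502 coding genes tested that have one. The leader was at least 500 nucleotides long in 4 of them: msa1 (2586), plb2 (1076), SPBC3H7.05c (660) and erg1 (519). Over those 4502 genes 6.57% had such a leader. The leaders of 5 of the 12 were shorter than the coding median. Those of ght2 and cbf12 were 412 and 383 nucleotides, and the shortest were those of eno101 (41) and msi2 (35). The coding sequence held introns in 2 of the 15 protein-coding genes, 1 in mfs1 and 4 in msi2, where 47.4% of coding genes had them.

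**Figure D4:**
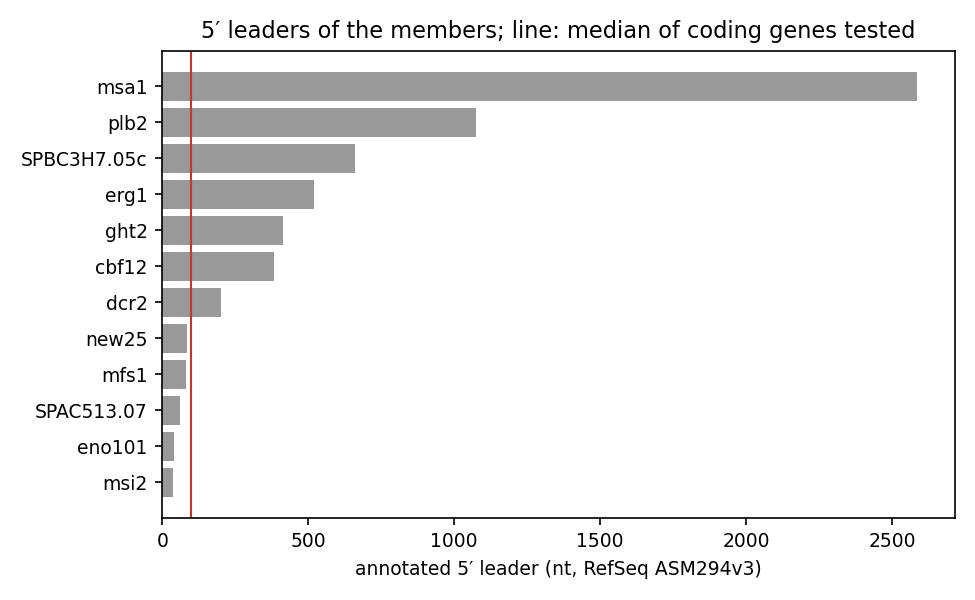
Annotated length of the 5′ leader in nucleotides for the 12 of the 17 genes that have one, with a line at the median of 99.0 nucleotides over the coding genes tested. In 7 genes the leader is longer than that median, and msa1 has the longest at 2586 nucleotides.

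Of 23 pathway lists drawn up for fission yeast, 3 held any of the 17 genes. Their counts can be set beside the coding-style identifiers at large, of which 7.76% were called higher and 5.96% lower in the deletion, and 27.4% higher and 35.1% lower in asp1-D333A. Without asp1-D333A replicate 3 these shares were 14.7%, 10.3%, 28.5% and 37.7%. The list of sterol and fatty acid synthesis held erg1 and 28 other tested genes. In the aps1 deletion 7 of the 29 were called higher and 0 lower, with a median log2 fold change of 0.10 (edgeR quasi-likelihood, Benjamini-Hochberg). The rule chose erg1 on this contrast, so its call was fixed beforehand, and without it 6 of 28 were higher and 0 lower. Beside erg1 the genes that rose were erg24 (log2 fold change 0.38 ± 0.06), erg28 (0.36 ± 0.06), erg4 (0.34 ± 0.08), erg7 (0.29 ± 0.05), scp1 (0.23 ± 0.06) and hem13 (0.20 ± 0.07). Of these erg4, erg7, erg24 and erg28 act in ergosterol synthesis, scp1 encodes a partner of the sterol-sensing factor Sre1, and hem13 acts in haem synthesis. In asp1-D333A 5 of the 29 were called higher and 10 lower, and without replicate 3 of that strain 9 and 8. Of the named genes erg24 was called higher there (0.15 ± 0.06), hem13 (-0.75 ± 0.07) and scp1 (-0.14 ± 0.06) lower, and erg4, erg7 and erg28 in neither direction. Without replicate 3 erg4 was called higher (0.19 ± 0.07), and erg24 and scp1 were no longer called.

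The list of drug transport held mfs1. Of its 16 tested genes 7 were called higher and 0 lower in the deletion, with a median of 0.24, and 8 were higher and 2 lower in asp1-D333A (edgeR quasi-likelihood, Benjamini-Hochberg). The rule chose mfs1 on the deletion contrast, and without it 6 of 15 were higher and 0 lower there. Of these 6, mfs2 met the measured bounds of the rule and was left out by cosmid clone, so its call was also fixed beforehand. The transporter gene mfs3 rose by 1.25 ± 0.12 in the deletion and fell by 1.38 ± 0.12 in asp1-D333A on the log2 scale. The brefeldin A resistance gene bfr1 rose in both, by 0.80 ± 0.07 and 1.02 ± 0.07. The gene with the longest sequence match to mfs1, caf5, changed by 0.34 ± 0.17 in the deletion with an adjusted p of 0.19 (0.0041 without asp1-D333A replicate 3, at the same fold change) and rose by 1.35 ± 0.17 in asp1-D333A by the same test.

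The list of glucose-repressed and sugar metabolism genes held ght2 and eno101. Of 37 tested genes 3 were called higher and 8 lower in the deletion, with a median of -0.17, and 12 were higher and 10 lower in asp1-D333A (edgeR quasi-likelihood, Benjamini-Hochberg). Without ght2 and eno101, which the rule chose on the deletion contrast, 2 of 35 were higher and 8 lower in the deletion. The deletion counts of all 37 were 7 higher and 13 lower without asp1-D333A replicate 3. The malate permease gene mae1 and the malic enzyme gene mae2 rose in the deletion beside ght2, by 0.52 ± 0.10 and 0.64 ± 0.11, and fell by 0.55 ± 0.10 and 1.14 ± 0.11 in asp1-D333A on the log2 scale. Other hexose transporter genes went down in the deletion: ght5 fell by 1.52 ± 0.10 and ght1 by 1.12 ± 0.20. The fall of ght5 was shared by asp1-D333A, at 1.14 ± 0.10, where ght1 changed by -0.20 ± 0.19 and was not called. For ght8 the change in the deletion was 0.18 ± 0.10 with an adjusted p of 0.23. The enolase paralogue eno102, at 5.61 CPM in WT, fell by 0.93 ± 0.25 in the deletion (adjusted p 0.024 by the same test).

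Lists of the relatives and partners of the 17 genes were drawn up after the genes were known. Of the 9 genes for flocculins and related adhesins, a class with known targets of Mbx2, 4 were called higher and 0 lower in the deletion, where 7.76% of coding-style identifiers were higher (edgeR quasi-likelihood, Benjamini-Hochberg). Of these, pfl3 met the measured bounds of the rule and was left out by name, so its call was fixed beforehand. They were pfl3 (log2 fold change 1.86 ± 0.07), pfl8 (1.18 ± 0.12), pfl7 (0.45 ± 0.11) and gsf2 (0.38 ± 0.10). In asp1-D333A 2 of the 9 were called higher and 2 lower, where 27.4% and 35.1% of coding-style identifiers were. The higher ones were pfl3 and pfl8, by 0.23 ± 0.07 and 0.71 ± 0.12. The lower ones were pfl5 (-0.28 ± 0.11) and pfl6 (-1.56 ± 0.45, at 0.659 CPM in WT). Without asp1-D333A replicate 3 pfl5 was no longer called (-0.18 ± 0.10). The related factor genes cbf11 and mbx1 changed by 0.05 ± 0.09 and 0.01 ± 0.09 in the deletion, with adjusted p of 0.75 and 0.96 by the same test, and map1 fell by 0.56 ± 0.17.

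Of 20 tested genes for cleavage and polyadenylation factors other than msi2, around which that list was drawn up, 1 was called higher in the deletion and 0 lower, where 7.76% of coding-style identifiers were higher (edgeR quasi-likelihood, Benjamini-Hochberg). Without asp1-D333A replicate 3 the counts with msi2 were 6 higher and 0 lower of 21. The gene called was ssu72, for a phosphatase of this machinery, which rose by 0.46 ± 0.12 on the log2 scale. In asp1-D333A 3 of the 20 were higher and 12 lower. In the phospholipase B family plb5 rose in both mutants, by 0.32 ± 0.10 in the deletion and by 0.41 ± 0.10 in asp1-D333A, where plb2 fell. In the deletion plb1 and plb3 changed by -0.21 ± 0.10 and 0.17 ± 0.07, with adjusted p of 0.17 and 0.13 by the same test. Without asp1-D333A replicate 3 these adjusted p were 0.027 and 0.04.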

How the data were processed

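Per the labels, poly(A)-selected RNA from hot acid phenol extraction was made into stranded TruSeq libraries and sequenced as read pairs. Per the submitters' processing notes, the tools included HISAT2 2.1.0, SAMtools, HTSeq 0.10.0 and DESeq2, with build ASM294v2; the counting settings for strand and multiply matching reads are not given in the sources used here. The authors deposited whole-number counts per feature, not normalized, 1 column per library (6987 lines, 6986 identifiers; a repeated identifier without counts was summed). Of these, 6846 matched RefSeq ASM294v3, used for names, neighbours and gene models; no coordinates are given.

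Counts were fitted with edgeR 4.0.16 (R 4.3.3): filterByExpr (minimum count 10), TMM, all 9 libraries in a group-means model, robust quasi-likelihood F tests, Benjamini-Hochberg adjustment over 6147 features, calls at an adjusted p under 0.05. An SE is the log2 fold change over the square root of F. The procedure was tested on simulated data. Tables of values use CPM by column total. Alternatives included DESeq2 1.42.0 and other scalings, filters and left-out libraries.

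The genes and lists were chosen with earlier results of these data known. Every one of the 17 genes was named, with the 3 genes nearest outside each bound, the 5 neighbours with the largest called change in the deletion, and lists holding any of the 17; other names were chosen after their values were seen. Planned motif searches were not run. Counts of the lists without the chosen genes and without asp1-D333A replicate 3 were added after seeing the data.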

Additional observations from a re-analysis of the deposited data

Results flagged for a closer look

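All 32 tested neighbours of the described genes were screened, and 2 are flagged here. The flag required that both mutants were called against WT in opposite directions and that their direct comparison was called too. A called difference between the mutants was thus a condition of the flag, and the values below are a description. SPNCRNA.1471, divergent from SPBC3H7.05c, was higher in the aps1 deletion than in asp1-D333A by 3.15 ± 0.11 on the log2 scale (adjusted p 1.2e-10, edgeR quasi-likelihood, Benjamini-Hochberg). All 3 deletion libraries were above WT and all 3 asp1-D333A libraries below it. SPNCRNA.1625, upstream of mbx2, differed by -0.79 ± 0.08 on the log2 scale in the same comparison (adjusted p 9.9e-07 by the same test), with every deletion library below WT and every asp1-D333A library above it.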

How the results depend on the processing

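Applying the rule to TMM-scaled CPM gave 30 genes, 14 of them shared and without plb2, dcr2 and cbf12, and a deletion ratio of 1.3 gave 42. A ratio of 1.5 gave 12, and minimum mean CPM of 1 and 10 gave 19 and 15. Leaving out 1 library at a time gave 15 to 21 genes. Of the 17, 9 were called in asp1-D333A against WT with total counts and 9 with upper-quartile scaling, and 4 to 8 with 1 library left out, the 8 without asp1-D333A replicate 3. Their median log2 fold change in asp1-D333A was 0.17 with total counts and 0.21 with upper-quartile scaling, and 0.00 to 0.07 with 1 library left out. In the deletion the median was 0.65 with total counts and 0.66 to 0.73 with 1 library left out, and 15 to 17 were called higher. Neighbours called higher in the deletion were 4 with the libraries of the pair alone, 1 with total counts and 1 to 4 with 1 library left out, and those called in asp1-D333A were 11 to 16. The cause of these shifts was not tested.

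For the 17 genes and the 5 named non-coding RNAs, 330 single-gene values under 15 alternatives gave 324 with the same direction and call, 0 reversed, 2 no longer called (wtf8) and 4 newly called (eno101). The replicate block could be fitted only between the mutants, since WT carries other numbers; with the replicate block 17 of the 17 were called, as without it. Same-numbered libraries of the mutants had correlations of 0.146, 0.0607 and -0.131 in their deviations from strain means, so the numbers were not taken to pair them. For new25 and wtf8, which have the fewest counts of the 17, counting error adds to the spread between libraries.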
